A study of Mus musculus with 12 samples.

Results

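The 8 genes described here, Hba-a1, Hba-a2, Hbb-bs, Hbb-bt, Alas2, Klf1, Slc4a1 and Car2, are genes of the red cell lineage that were followed by RNA-seq in neutrophils from mouse bone marrow. They were taken by name from a table of 29737 genes and not by a cutoff on their values, although earlier results of these data were known. The neutrophils carried the genotype WT and were kept for 24 h in medium with fetal bovine serum, to which PBS (the control), TCA (taurocholic acid, 200 μM), GCA (glycocholic acid, 200 μM) or Tβ-MCA (tauro-β-muricholic acid) was added. The sample labels give 10 μM for Tβ-MCA while the study's methods text gives 200 μM, so the dose of this group is uncertain and Tβ-MCA was set only against PBS. Each of the 4 groups had 3 samples, which the labels number 3, 5 and 6 for PBS and 3, 4 and 5 for each bile acid. The labels say that Ly6G+ cells were sorted with magnetic beads, while the methods text names a neutrophil enrichment kit. Neither says which mice gave which sample or whether cells of several mice were pooled, so a p-value here measures the spread between these samples, which may be technical. The study asked how primary bile acids change neutrophils, and the comparisons below give what these red cell genes did in the same cultures.

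Red blood cells form in the bone marrow from erythroblasts, beside the developing neutrophils, and pack themselves with hemoglobin, a tetramer of α-globin and β-globin chains that each hold a heme group. Heme is built by a chain of enzymes whose first step is carried out by ALAS2 in erythroid cells and by ALAS1 in most other cells. GATA1 and KLF1 are transcription factors that switch on the globin genes, the heme enzymes and the proteins of the red cell membrane, and these transcripts are used in marrow as a mark of erythroid cells and of the RNA they leave behind.

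All 8 genes had low counts, in libraries that held 32757389 to 41375925 counts each (median 36020674.5). Together they took between 78 and 173 counts per sample. Of the 96 values of 8 genes in 12 samples, 6 were 0 and 19 were under 3 counts. This floor, below which a count was not told from 0, was set in advance and not derived from these data. It equals 0.0725 to 0.0916 CPM (counts-per-million) at these depths. Of the 90 values above 0, 78 were even numbers, and 71.0% to 74.4% of all counts from 1 to 20 in a sample were even. Whether both mates of a read pair were counted was not stated, so a count may stand for less than a whole fragment and counting error may be larger than the counts imply.

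The globin genes come in near-identical pairs, which limits how far each gene can be measured. Hba-a1 (chr11:32283511-32284465, plus strand, GRCm38) and Hba-a2 (chr11:32296489-32297298, plus strand) are the adult α-globin genes. Their coding sequences of 426 bases differed at 1 base, C381T with positions counted from 1 at the first coding base of Hba-a1, and were identical over a run of 380 bases. Hbb-bs (chr7:103826534-103828096, minus strand) and Hbb-bt (chr7:103812524-103813996, minus strand) are the adult β-globin genes of this mouse haplotype. Their coding sequences of 441 bases also differed at 1 base, C417T counted from the first coding base of Hbb-bs, with an identical run of 416 bases. The windows of 55 coding bases around these differences are shown because they are the only coding stretches where a read can tell the copies apart. The capital marks the base that differs, and each is read 5′ to 3′ on the coding strand.
Hba-a1, chr11:32284313-32284367: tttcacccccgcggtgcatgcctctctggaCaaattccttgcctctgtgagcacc
Hba-a2, chr11:32297130-32297184: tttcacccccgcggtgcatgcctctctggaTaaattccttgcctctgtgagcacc
Hbb-bs, chr7:103826668-103826722: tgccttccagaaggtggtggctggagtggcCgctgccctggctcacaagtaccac
Hbb-bt, chr7:103812659-103812713: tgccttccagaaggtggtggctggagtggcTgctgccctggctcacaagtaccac

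A read that covers neither the marked base nor the noncoding ends of these genes fits both copies of its pair. How such reads were treated was not stated, so the split within a pair is uncertain and the sum over a pair is also given. If they were left out of the counts, the sums and all globin levels below are too low by an unknown amount. Of 371 counts on the α-globin genes, 13.5% lay on Hba-a2, and of 302 counts on the β-globin genes, 9.93% lay on Hbb-bt.

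Levels between genes were compared in RPKM, which divides CPM by the exon length in kilobases, as deposited. Hba-a1 had the highest mean with 0.915 ± 0.341 RPKM (SD, n = 12) and Hbb-bs followed with 0.820 ± 0.402, a gap smaller than either spread. Car2 came next with 0.477 ± 0.125. Below it, Hba-a2 had 0.171 ± 0.129, Alas2 0.132 ± 0.0330, Klf1 0.0990 ± 0.0593, Hbb-bt 0.0984 ± 0.0875 and Slc4a1 0.0462 ± 0.0319, and each of these neighbours differed by less than the larger of their 2 SDs. The means ranked from percentile 31.4 (Slc4a1) to percentile 58.7 (Hba-a1) among all genes in the table. The table holds no gene that was 0 in every sample, so these ranks are among detected genes.

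All 14 neutrophil markers listed reached at least 3 counts in every sample, and their summed RPKM was 50594 to 71931 per sample. That sum rests largely on S100a9 (mean 40765 RPKM) and Ngp (12095 RPKM). The lowest of the 14 was Ly6g (16.3 RPKM), the antigen named for the sort, which lay below the monocyte marker Cd68 (134 RPKM). The RPKM of S100a9, a calcium-binding protein that fills neutrophil cytosol, was 25137 to 78577 times that of Hba-a1 in the same sample (median 56230). Other erythroid markers were low. Rhag, of the Rh membrane complex, and Car1, the red cell carbonic anhydrase I, were each at 0 in 8 of 12 samples and reached 4 counts at most. Epor, the erythropoietin receptor, reached 10 counts and Hemgn, a nuclear protein of blood progenitors, 34. Gata1 was clearly detected, with 27 to 77 counts, and it is also expressed in megakaryocytes, eosinophils and mast cells. In these bulk cultures fewer erythroid cells and less RNA per cell cannot be told apart.

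**Figure D1:**
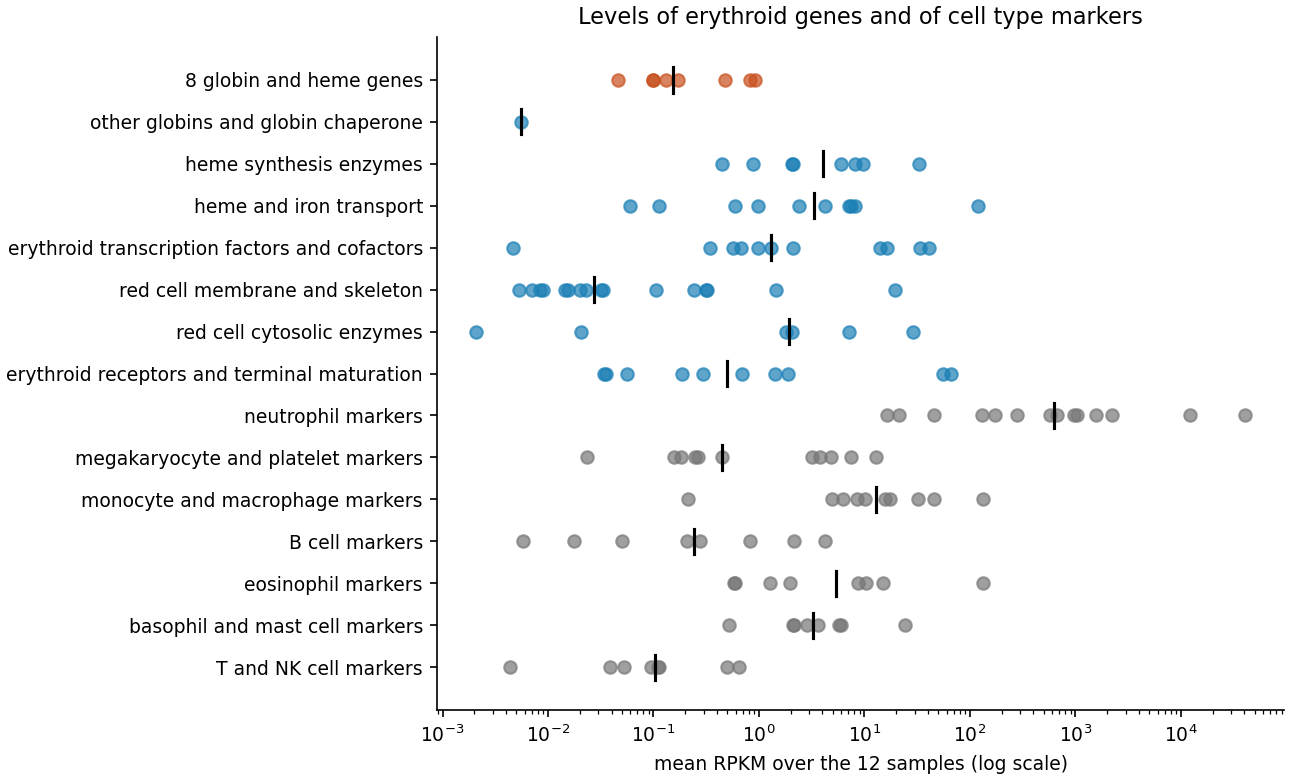
Mean RPKM over the 12 samples (log scale) of each gene in the table, 1 point per gene, for the 8 globin and heme genes (orange), the other erythroid lists (blue) and markers of other blood cells (grey); black bars are list medians. The 8 genes lie between 0.0462 and 0.915 RPKM, below all 14 neutrophil markers.

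Globin RNA varied more between samples of 1 group than between groups. The 4 globin genes together took 27 to 98 counts per sample (median 52), which is 0.748 to 2.66 CPM of the library total. The group means were 1.60 ± 0.574 CPM (SD, n = 3) with PBS, 1.62 ± 0.898 with TCA, 1.38 ± 0.758 with GCA and 1.62 ± 0.421 with Tβ-MCA, so the group means differed by less than the SD of any group. The ratio of α-globin to β-globin RPKM was 0.688 to 2.32 (median 1.31).

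The samples numbered 3 were low in globin. Their sums were 0.748 to 1.22 CPM, against 1.06 to 2.66 in the 8 others, and number 3 was the lowest of its group in 3 of 4 groups. Over all 16761 genes that passed the filter on low counts, number 3 was lowest in at least 3 of the 4 groups for 4020 genes (24.0%). Of 9 tested megakaryocyte and platelet markers, number 3 was lowest in at least 3 groups for 6, among them Pf4, platelet factor 4 (0.803 to 1.75 CPM against 2.48 to 4.88 CPM in the 8 other samples). It was highest in all 4 groups for 1 of the 9, Itga2b, the platelet integrin αIIb. What the numbers stand for is not given, and their part in the globin levels was not tested.

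**Figure D2:**
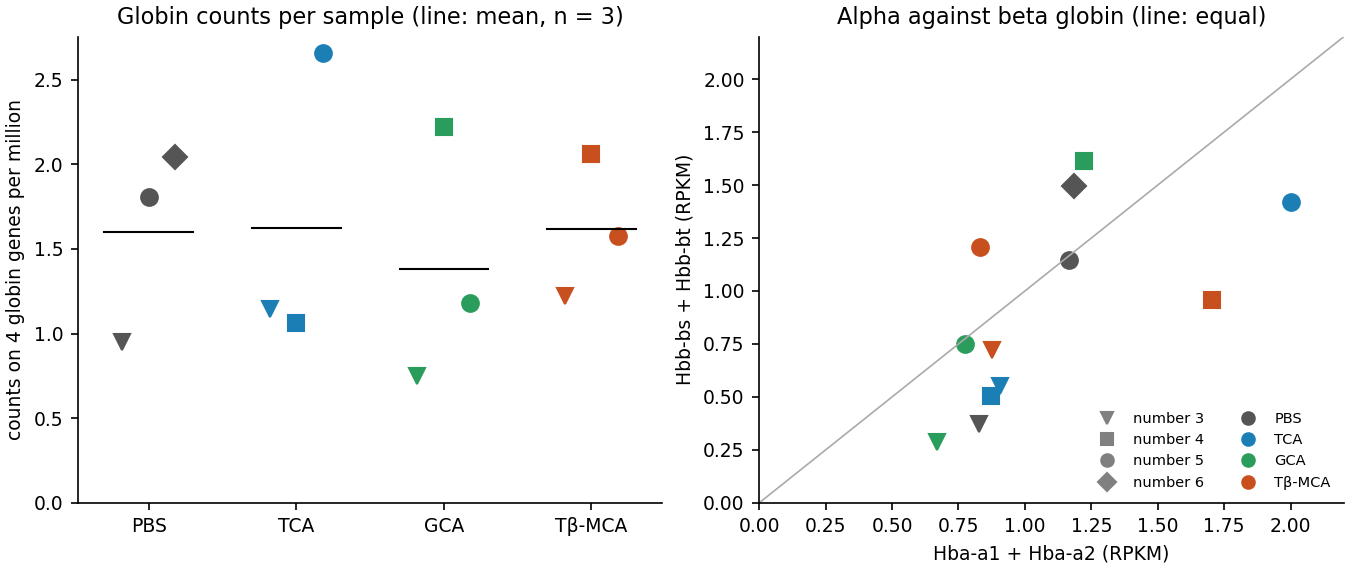
Left, counts on the 4 globin genes as CPM of the library total, 1 point per sample, with the mean of each group of 3 as a line. Right, summed RPKM of Hba-a1 and Hba-a2 against that of Hbb-bs and Hbb-bt, with the line of equal values. Groups overlap in both panels, and the samples numbered 3 (downward triangles) lie at 0.748 to 1.22 CPM.

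Differences between groups were tested with edgeR over all 16761 genes, in units of CPM with library sizes scaled by the TMM method, and a gene was called at an adjusted p under 0.05 (Benjamini-Hochberg over all genes). Of the 8 genes, Hba-a1, Hbb-bs, Alas2, Slc4a1 and Car2 passed the filter and Hba-a2, Hbb-bt and Klf1 did not. No gene of the 5 tested was called in any comparison, 0 had an unadjusted p under 0.05 in edgeR, DESeq2 called 0 of those it adjusted (it gave Alas2 and Slc4a1 no adjusted p with Tβ-MCA), and limma called 0 of the 2 it could test, Hba-a1 and Hbb-bs. In the same fits, the share of all tested genes that was called was 0% for TCA against PBS, 7.62% (1278 genes) for Tβ-MCA against PBS, 0% for GCA against PBS and 0% for GCA against TCA. At an unadjusted p under 0.05 these shares were 3.26%, 24.9%, 3.53% and 2.46%. With the cutoffs of the study, an unadjusted p under 0.05 together with a change of at least 2-fold, 0 of the 5 passed in any comparison, against 0.465%, 2.95%, 0.531% and 0.442% of all genes. The 3 comparisons with PBS share the same 3 control samples.

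**Figure D3:**
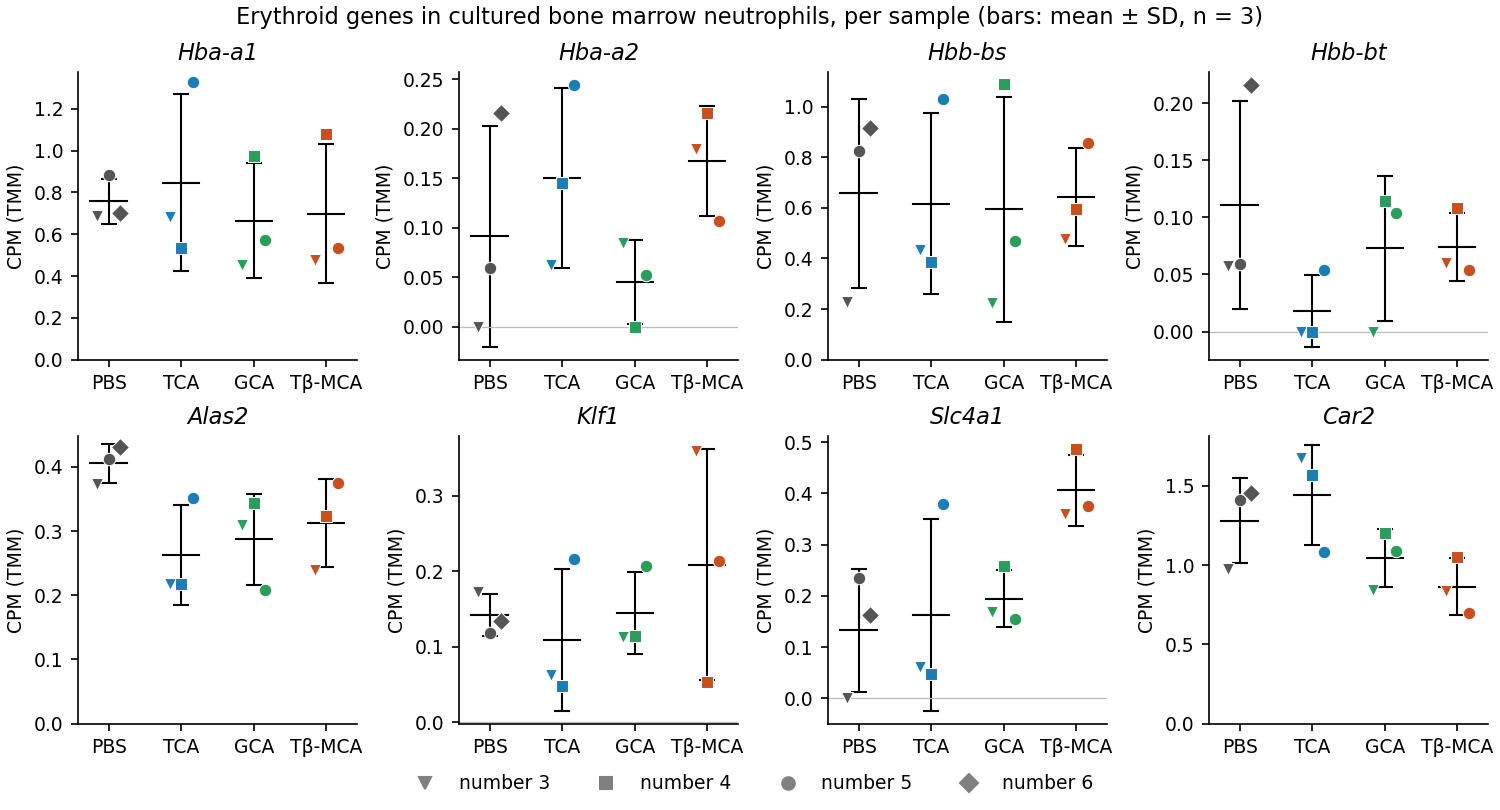
CPM (TMM-scaled) of each of the 8 genes in every sample, with the mean ± SD of each group (n = 3) in black; the shape of a point gives the number in the label. The groups overlap in most panels. All 3 Tβ-MCA samples lie above the PBS samples for Slc4a1, and all 3 TCA and all 3 GCA samples lie below them for Alas2.

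Hba-a1, an α-globin gene, had 0.689, 0.883 and 0.701 CPM in PBS samples 3, 5 and 6, and 0.682, 0.532 and 1.33 CPM in TCA samples 3, 4 and 5. In GCA samples 3, 4 and 5 it had 0.451, 0.974 and 0.571 CPM, and in the Tβ-MCA samples of the same numbers 0.479, 1.08 and 0.535 CPM. All groups overlapped, and each bile acid group held 1 sample above every PBS sample. The log2 fold change against PBS was 0.16 (SE 0.41) with TCA, −0.19 (SE 0.42) with GCA and −0.11 (SE 0.42) with Tβ-MCA. The 95% confidence interval of the difference between GCA and TCA ran from −1.23 to 0.54 on the log2 scale. That interval holds both no change and a fall of 2-fold.

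Hbb-bs, a β-globin gene, was still more variable. It had 0.230, 0.824 and 0.917 CPM with PBS, 0.434, 0.387 and 1.03 CPM with TCA, 0.225, 1.09 and 0.467 CPM with GCA, and 0.479, 0.594 and 0.857 CPM with Tβ-MCA, in the order of the sample numbers. The 4 groups overlapped almost fully. The log2 fold changes against PBS were −0.09 (SE 0.58) with TCA, −0.15 (SE 0.58) with GCA and −0.03 (SE 0.57) with Tβ-MCA, and that of GCA against TCA was −0.06 with a 95% interval from −1.31 to 1.18. The biological coefficient of variation that edgeR estimated for Hbb-bs was 0.450, at percentile 97.9 of all genes tested, and that of Hba-a1 was 0.309, at percentile 90.1.

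The minor copies of each pair had too few counts for a test. Hba-a2 had 0, 2 and 8 counts with PBS, 2, 6 and 9 with TCA, 3, 0 and 2 with GCA, and 6, 8 and 4 with Tβ-MCA. Hbb-bt had 2, 2 and 8 counts with PBS, 0, 0 and 2 with TCA, 0, 4 and 4 with GCA, and 2, 4 and 2 with Tβ-MCA. Hba-a2 overlapped with PBS in every group, and Hbb-bt overlapped with PBS in all but TCA, where no count exceeded the lowest PBS count. Hba-a2 reached 3 counts in 7 of 12 samples and Hbb-bt in 4 of 12.

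Across the 12 samples Hbb-bs and Hba-a1 moved together to a degree that did not pass a correction for the 4 relations computed with Hbb-bs. Pearson's r of their log2 CPM was 0.604 (permutation p = 0.0391, adjusted 0.0783) and Spearman's rho was 0.664 (permutation p = 0.0219, adjusted 0.0656). Without PBS 3 and GCA 3, the samples farthest from the median of Hbb-bs, r was 0.607, among deviations from the group means it was 0.628, and among deviations from the means of the 4 sample numbers it was 0.503. For Slc4a1 against Hbb-bs r was 0.644 (permutation p = 0.0242, adjusted 0.0783) with rho 0.629 (permutation p = 0.0328, adjusted 0.0656), with r of 0.545 without those samples, 0.800 within groups and 0.571 within numbers. For Alas2, r was 0.443 (permutation p = 0.148, adjusted 0.197) with rho 0.517 (permutation p = 0.0888, adjusted 0.118), with r of 0.884 without those samples, 0.577 within groups and 0.285 within numbers. For Car2, r was 0.142 (permutation p = 0.658, adjusted 0.658) with rho 0.0699 (permutation p = 0.835, adjusted 0.835), with r of −0.208 without those samples, 0.268 within groups and −0.015 within numbers. Number 6 holds 1 sample, which adds nothing to the values within numbers.

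Alas2 (chrX:150547375-150570638, plus strand), the erythroid enzyme of the first step of heme synthesis, had its highest values with PBS. It had 0.373, 0.412 and 0.431 CPM in the PBS samples, 0.217, 0.218 and 0.352 CPM with TCA, 0.310, 0.344 and 0.207 CPM with GCA, and 0.239, 0.324 and 0.375 CPM with Tβ-MCA. All TCA and all GCA samples lay below all PBS samples, whereas Tβ-MCA overlapped with PBS by 1 sample. The values came from 7 to 16 counts per sample. The log2 fold change was −0.62 (SE 0.41) with TCA, −0.50 (SE 0.41) with GCA and −0.37 (SE 0.40) with Tβ-MCA, the 95% intervals all included 0, and the lowest adjusted p of the 3 in edgeR was 0.624. Groups that do not overlap were found for 9.67% of all tested genes in TCA against PBS, 9.55% in GCA against PBS, 27% in Tβ-MCA against PBS and 8% in GCA against TCA, and for 1, 1, 1 and 0 of the 5 tested here. GCA against TCA gave 0.12 (95% interval −0.79 to 1.03). The 3′ end of Alas2 overlaps Apex2 and shares 311 of its 2403 exon bases (12.9%) with it, a DNA repair gene on the opposite strand, and whether counting used the strand of the library was not stated, so some of these counts may belong to Apex2.

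Klf1 (chr8:84901928-84905291, plus strand), the erythroid transcription factor that binds the β-globin promoter, had 6, 4 and 5 counts with PBS, 2, 2 and 8 with TCA, 4, 4 and 8 with GCA, and 12, 2 and 8 with Tβ-MCA. The groups overlapped throughout. The mean with Tβ-MCA was 0.209 ± 0.153 CPM (SD, n = 3) against 0.142 ± 0.0278 CPM with PBS, and the highest and the lowest of its values in these 2 groups were both Tβ-MCA samples. Klf1 was not tested.

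Slc4a1 (chr11:102348824-102366203, minus strand), which encodes band 3, the anion exchanger of the red cell membrane, had the largest fold change of the 5 genes tested. It had 0, 0.235 and 0.162 CPM with PBS, 0.0620, 0.0483 and 0.379 CPM with TCA, 0.169, 0.258 and 0.156 CPM with GCA, and 0.359, 0.486 and 0.375 CPM with Tβ-MCA. The 3 Tβ-MCA samples held 12, 18 and 14 counts against 0, 8 and 6 with PBS, and all lay above all PBS samples. The highest TCA sample reached into the Tβ-MCA range. The log2 fold change with Tβ-MCA was 1.60 (SE 0.76, 95% interval −0.01 to 3.21), with an edgeR adjusted p = 0.204 (0.0513 before adjustment), so it was not called. PBS 3 was the sample at 0, and the log2 fold change was 1.03 without it (edgeR adjusted p = 0.420) and 2.25 without PBS 5 (edgeR adjusted p = 0.198). With TCA the log2 fold change was 0.30 (SE 0.84) and with GCA 0.54 (SE 0.83), and GCA against TCA gave 0.24 with a 95% interval from −1.45 to 1.93. The coefficient of variation of Slc4a1 was 0.450, at percentile 97.9.

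Car2 (chr3:14886273-14900770, plus strand), carbonic anhydrase II, which turns carbon dioxide into bicarbonate in red cells and in several other cell types, had 26 to 65 counts per sample, more in total than any other of the 8. It had 0.975, 1.41 and 1.46 CPM with PBS, 1.67, 1.57 and 1.08 CPM with TCA, 0.845, 1.20 and 1.09 CPM with GCA, and 0.838, 1.05 and 0.696 CPM with Tβ-MCA. With Tβ-MCA 2 of 3 samples were below all PBS samples and the third lay above PBS 3. The log2 fold change was −0.57 (SE 0.27, 95% interval −1.15 to 0.01, unadjusted p = 0.0542 and adjusted p = 0.211 in edgeR) with Tβ-MCA, 0.17 (SE 0.26) with TCA and −0.29 (SE 0.27) with GCA. GCA against TCA, the pair of cholic acid conjugates at one dose that carry glycine or taurine, gave −0.46 (95% interval −1.03 to 0.10). None of the 4 comparisons was called.

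**Figure D4:**
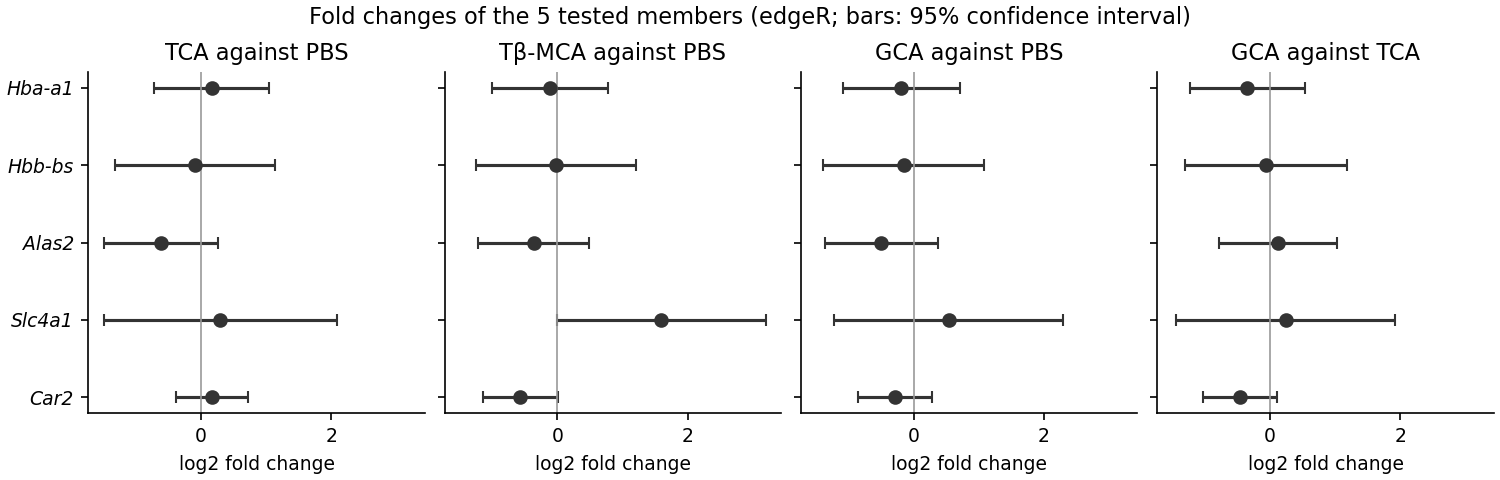
Log2 fold change with its approximate 95% confidence interval, derived from the edgeR fit, for the 5 tested genes in the 4 comparisons. A value of 0 means no difference. Every interval includes 0, the nearest to excluding it being Slc4a1 (−0.01 to 3.21) and Car2 (−1.15 to 0.01) with Tβ-MCA.

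The other genes of the erythroid program were examined as 7 lists of 71 genes, of which 62 were in the table and 46 were tested. With TCA and with GCA 0 of the 46 were called in edgeR. At an unadjusted p under 0.05 there were 0 with TCA and 3 with GCA, against 3.26% and 3.53% of all genes tested. In GCA against TCA 0 were called with 0 at that p. With Tβ-MCA 9 of 46 were called (19.6%, against 7.62% of all genes tested), 4 higher (background 4.44%) and 5 lower (background 3.18%). At an unadjusted p under 0.05 there were 16 of 46 with Tβ-MCA, against 24.9% of all genes. The median log2 fold change of the 46 with Tβ-MCA was 0.04, against 0.00 for all genes. The called genes had mean levels from 0.677 RPKM (Gata1) to 55.4 RPKM (Mkrn1), and the share over all genes was not matched for level. The number of calls depended on single libraries and on the fit. It was 0 in a fit of these 2 groups alone, 3 in limma and 0 without the samples numbered 3 (0, 859 and 1 over all genes). It was 0 without PBS 3, PBS 5, Tβ-MCA 3 or Tβ-MCA 4, 1 without PBS 6 and 15 without Tβ-MCA 5. Over all genes tested the calls moved in the same way, to 0 without each of the first 4, 168 without PBS 6 and 3076 without Tβ-MCA 5.

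Of the 8 other heme synthesis enzymes, all tested, 1 rose and 1 fell with Tβ-MCA. Alas1, the housekeeping counterpart of Alas2, fell from 218, 175 and 183 CPM with PBS to 156, 141 and 162 CPM, a log2 fold change of −0.33 (SE 0.087, edgeR adjusted p = 0.0350). Fech, ferrochelatase, which inserts iron into the ring in the last step, rose from 19.7, 20.9 and 22.7 CPM to 28.4, 30.4 and 24.5 CPM, a log2 fold change of 0.40 (SE 0.11, edgeR adjusted p = 0.0435). The groups did not overlap for either gene. In limma neither was called (limma adjusted p = 0.0640 for Alas1 and 0.0621 for Fech). Alas1 exceeded Alas2 198 to 380 times in RPKM (median 240), and its mean of 33.0 RPKM ranked at percentile 94.1 of the genes in the table.

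Of the 10 tested genes of heme and iron transport 0 were called with Tβ-MCA in edgeR, with 2 at an unadjusted p under 0.05. At the study's cutoffs 1 of them passed, against 2.95% of all genes. It was Tfr2, with a mean of 0.424 CPM with PBS and 0.154 CPM with Tβ-MCA, from 2 to 18 counts per sample. Those with the highest levels were Hmox1, the enzyme that breaks heme down (120 RPKM, log2 fold change 0.00), Slc25a37, the mitochondrial iron importer mitoferrin (8.06 RPKM, 0.10), Tfrc, the transferrin receptor (7.46 RPKM, 0.15), and Slc25a38, a mitochondrial carrier for glycine (7.10 RPKM, −0.43, edgeR adjusted p = 0.103).

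Of the 10 tested erythroid transcription factors and cofactors 1 rose and 3 fell with Tβ-MCA. Gata1 had 1.81, 1.88 and 1.83 CPM with PBS and 0.808, 1.32 and 1.12 CPM with Tβ-MCA, with no overlap and a log2 fold change of −0.76 (SE 0.21, edgeR adjusted p = 0.0428). This call was lost with total library size (edgeR adjusted p = 0.0523), no filter (0.0622) or the replicate block (0.0688), and in limma (0.0540). With TCA it had 1.64, 1.84 and 1.84 CPM and with GCA 2.06, 1.72 and 2.00 CPM, both overlapping with PBS. Nfe2, a factor of erythroid and megakaryocyte genes that neutrophils also express, fell by 0.42 on the log2 scale (SE 0.090, edgeR adjusted p = 0.0211), and Lmo2, a bridging cofactor of the GATA1 complex, fell by 0.27 (SE 0.078, edgeR adjusted p = 0.0492). The call of Lmo2 was lost in the same alternatives (adjusted p 0.0829, 0.0983 and 0.0870 in edgeR, and 0.0568 in limma). Bcl11a, a repressor of fetal globin that is also a factor of B cells, rose by 0.57 (SE 0.15, edgeR adjusted p = 0.0368). In limma Bcl11a was not called (limma adjusted p = 0.0699).

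Gata1 also marks other cells of the marrow. The summed levels of eosinophil and of basophil markers were lower in all Tβ-MCA samples than in all PBS samples. This was not particular to them. Summed neutrophil markers were 60520 to 71931 RPKM with PBS and 50594 to 56953 with Tβ-MCA. Summed T and NK cell markers were 1.81 to 2.36 RPKM with PBS and 0.933 to 1.28 with Tβ-MCA. The sums of monocyte and of B cell markers overlapped. The summed RPKM of 8 eosinophil markers was 163 to 275 with PBS and 62.1 to 144 with Tβ-MCA, with 1 of the 8, Siglecf, called lower in edgeR. The sum of 8 basophil and mast cell markers was 44.9 to 65.5 with PBS and 30.4 to 38.5 with Tβ-MCA, with 1 of 8, Hdc, called lower. Each sum rests largely on its highest gene, Prg2 (mean 132 RPKM) for eosinophils and Hdc (24.3 RPKM) for basophils, and not every marker fell. Of all tested genes 3.18% were called lower in this comparison, and the 2 groups did not overlap for 27%. Of 11 megakaryocyte and platelet markers, 9 were tested and 0 were called in edgeR, with 0 at an unadjusted p under 0.05, and their sums of 31.6 to 37.3 with PBS overlapped those with Tβ-MCA. Of 14 neutrophil markers, 5 were called lower (Ly6g, S100a8, Mmp9, Camp and Lcn2), of 10 monocyte markers 1 (Ly6c2), of 7 tested B cell markers 1 (Cd79a), and of 5 tested T and NK cell markers 0 in edgeR, with 1 at an unadjusted p under 0.05. The part of these cells in the fall of Gata1 was not tested.

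In the red cell membrane and skeleton list 7 of 16 genes were tested and 1 rose with Tβ-MCA. Epb41, protein 4.1 of the membrane skeleton, which many cells make, rose by 0.23 on the log2 scale (SE 0.060, edgeR adjusted p = 0.0327). Among 4 tested cytosolic enzymes, Cat, catalase, which breaks down hydrogen peroxide in most cells, rose from 66.4, 65.7 and 67.9 CPM to 93.5, 95.8 and 78.6 CPM, a log2 fold change of 0.42 (SE 0.089, edgeR adjusted p = 0.0211). All 4 had an unadjusted p under 0.05 in edgeR, against 24.9% of all genes, but only Cat was called. From PBS to Tβ-MCA the mean of Bpgm rose from 5.68 to 7.72 CPM. The means of Blvrb (22.6 to 15.5 CPM) and Prdx2 (7.18 to 5.32 CPM) fell. Among 7 tested genes of erythroid receptors and terminal maturation, Mkrn1, a ubiquitin ligase, fell by 0.24 (SE 0.066, edgeR adjusted p = 0.0408), a call lost with total library size (edgeR adjusted p = 0.0688) and in limma (0.0688). Hbq1b was the 1 gene of the list of other globins and their chaperone in the table, with 0 to 2 counts, and the other 8 were not analysed here.

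**Figure D5:**
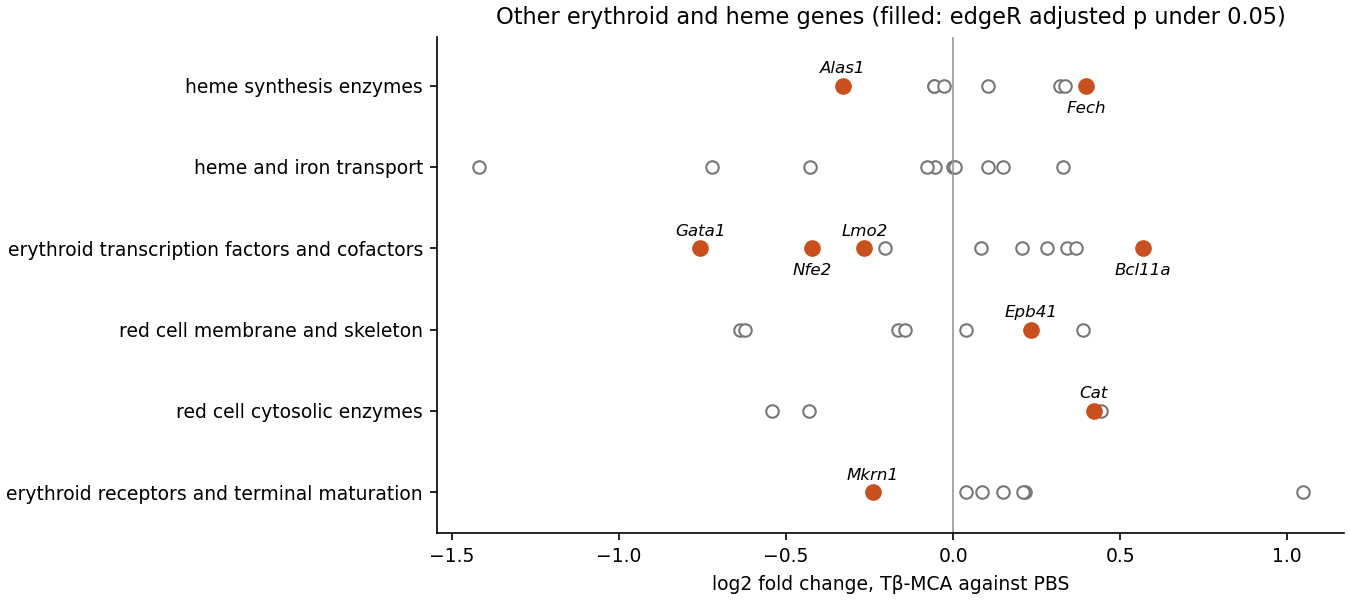
Log2 fold change of Tβ-MCA against PBS for the 46 tested genes of the other erythroid and heme lists, 1 point per gene; filled points are the 9 with an edgeR adjusted p under 0.05. Called genes lie on both sides of 0, from −0.76 (Gata1) to 0.57 (Bcl11a).

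In the promoters of the red cell genes the letters CACCC, the core of the site that KLF1 binds, and GATAA, a form of the GATA factor site, were searched on both strands of the 250 bases before the RefSeq start (GRCm38.p6). A promoter was found for 6 of the 8 genes, all but Slc4a1 and Car2. CACCC was present in all 6, against 52.0% of 32851 promoters, and GATAA was present in all 6, against 22.6%. The 6 include both copies of each globin pair, with sites at similar distances from the start, so they are not independent promoters. Such a match is a description of the letters and not of binding.

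The genes most like the 5 tested genes over the 12 samples, by Pearson's r with the mean of their standardised log2 CPM, were Phyhd1 (r = 0.911, 32 to 64 counts), Gm17233 (0.892), 1110012L19Rik (0.859), Tma7 (0.854), Ap2s1 (0.849), Rps7 (0.849), Uqcrh (0.849), Zfp874a (0.847), Cox17 (0.844) and Gm21987 (0.843). None of them is a gene of the erythroid lists. These are the highest of all tested genes outside the 8, over samples that share their libraries, and they carry no test.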

How the data were processed

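RNA-seq of 12 cultures of mouse bone marrow neutrophils (PBS, TCA, GCA and Tβ-MCA, 3 each) was analysed from the table the authors deposited, which holds raw counts per gene and RPKM for each sample. Per the submitters' processing notes, reads were trimmed with Trimmomatic 0.36, aligned with STAR 2.5.3a to GRCm38 and counted with featureCounts of Subread 1.5.1, from a stranded mRNA library. The strand and read-pair settings of the counting are not given in the sources used here. The deposited RPKM values were recomputed from the counts and exon lengths and differed by at most 1.3e-06 of a value. Columns named GA were taken as the GCA samples, since no other title could match.

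Counts were tested in edgeR 4.0.16 (R 4.3.3) with TMM, filterByExpr by group, a robust quasi-likelihood fit over all 12 samples and Benjamini-Hochberg adjustment over the 16761 genes kept. The script was tested on simulated data. Alternatives were DESeq2 1.42.0, limma 3.58.1 on log2(RPKM + 0.5) for genes with a mean RPKM of at least 0.5, other size factors, other filters (none, or at least 10 counts in every sample), a replicate block, fits of the 2 groups compared, and leaving out each sample. Coding sequences came from GENCODE vM21 and promoters from RefSeq. The intervals cover counting error and the spread of these samples only, and the floor of 3 counts was a setting.

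All 8 genes were described in every comparison. From the other lists, every gene called against PBS was named, or else the 4 with the highest mean RPKM of a list, plus the 10 genes most like the tested ones; other genes were named after their values were seen. The genes and lists were chosen with earlier results of these data known. Some genes of the lists are not reported here by name.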

Additional observations from a re-analysis of the deposited data

How the results depend on the processing

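No call of the 8 genes depended on the processing, since 0 were called in any comparison under any alternative run. The filter of 10 counts kept 2 of the 8 genes (Hba-a1 and Car2), limma 2 (Hba-a1 and Hbb-bs), and DESeq2 gave Alas2 and Slc4a1 no adjusted p with Tβ-MCA. At the study's cutoffs, 1 gene (Slc4a1) passed with Tβ-MCA under total library size, with no filter, in the fit of the 2 groups and in the fit with the replicate block, and leaving out 1 sample gave 0 to 1 (1 without PBS 5) with a log2 fold change of 1.03 to 2.25. Its adjusted p ranged from 0.159 to 0.459. Of the erythroid list genes, 9 were called with Tβ-MCA, against 0 in the fit of the 2 groups, 3 in limma, 0 without the 4 samples numbered 3 (an alternative chosen after seeing the data) and 0 to 15 when 1 sample was left out. Over all genes tested the calls were 0 in the fit of the 2 groups, 859 in limma and 1 without the samples numbered 3. Total library size left 6 of the erythroid list genes and DESeq2 called 11. With no filter and with the replicate block the count was also 9, though Gata1 and Lmo2 were not among the called.

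After group means were removed from each gene, the correlation was 0.0597 to 0.326 in 15 pairs that share a number (mean 0.189). The mean over 39 pairs of different numbers was −0.0716. Removing group means makes the samples of a group cancel, so a positive mean for shared numbers forces a negative mean elsewhere. The negative mean is therefore no separate contrast. Of the 12 samples, 10 correlated best with their own number, a hint of pairing from the data. PBS 6 had no partner of its number and could not do so. Since only 12 of the 15 pairs were over 0.1 and no label says what a number marks, the block stayed an alternative. With the replicate block the log2 fold change turned to −0.033 for Hba-a1 and 0.19 for Hbb-bs (TCA), 0.28 for Hbb-bs (Tβ-MCA) and 0.12 for Hbb-bs (GCA), and all genes called numbered 3, 1498, 0 and 0 in the order TCA, Tβ-MCA and GCA against PBS and GCA against TCA.

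Other turns of sign were these. Hbb-bs with Tβ-MCA was 0.015 with total library size and 0.067 in limma. Without the samples numbered 3, Car2 with TCA was −0.11, Hba-a1 with Tβ-MCA 0.033, and in GCA against TCA Hbb-bs was 0.14, Alas2 −0.042 and Slc4a1 −0.017. Leaving out 1 sample gave, with TCA, −0.32 to 0.41 for Hba-a1, −0.68 to 0.23 for Hbb-bs and −1.23 to 0.95 for Slc4a1. With Tβ-MCA it gave −0.57 to 0.093 for Hba-a1 and −0.43 to 0.30 for Hbb-bs. With GCA it gave −0.56 to 0.023 for Hba-a1, −0.91 to 0.23 for Hbb-bs and −0.030 to 1.19 for Slc4a1. In GCA against TCA it gave −0.72 to 0.14 for Hba-a1, −0.82 to 0.53 for Hbb-bs, −0.026 to 0.39 for Alas2 and −0.22 to 1.76 for Slc4a1. The cause of these shifts was not tested.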
